A study of Saccharomyces cerevisiae with 12 samples.

Results

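The departure from additive single deletion effects was measured for 5449 genes of budding yeast, Saccharomyces cerevisiae, on all 12 Affymetrix arrays of the series. The arrays fall into 4 groups of 3 biological replicates by their titles: Dnup60 Dada2, Dnup60, Dada2 and wildtype. All groups are labelled as MATa his3 leu2 met15 ura3, a haploid a-type strain with nutritional markers. A KANR cassette replaces NUP60 and ADA2 in Dnup60 Dada2, NUP60 in Dnup60, ADA2 in Dada2 and neither gene in wildtype. Cells grew at 30 °C in 50 mL of YEPD, a rich glucose medium, to mid-log phase, and biotin-labelled RNA was made from 5 µg of total RNA. Each group is 1 strain, so a deletion cannot be told apart from anything else that sets its strain apart, and the labels do not say how far the replicates of a strain are separate cultures beyond calling them biological. The departure is the change that goes with the loss of NUP60 in cells without ADA2 (Dnup60 Dada2 minus Dada2), minus the same change in cells with ADA2 (Dnup60 minus wildtype). By arithmetic it equals the ADA2 effect without NUP60 minus the ADA2 effect with NUP60. A departure of 0 on the log2 scale means that the fold changes of the single deletions multiply. The additive expectation of a gene is the level the double deletion would then have, and a gene is called above or below it at a limma adjusted p under 0.05.

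The product of NUP60 belongs to the nuclear basket, the structure on the inner face of the nuclear pore through which mRNA leaves the nucleus and to which some active genes are tethered. ADA2 encodes a subunit of SAGA, a coactivator complex whose acetyltransferase Gcn5 acetylates histones at promoters, and Ada2 is needed for that activity. SAGA is known for its role at strongly regulated genes, among them those of stress, of carbon source and of amino acid supply, and parts of SAGA touch the nuclear pore. Whether loss of one protein changes the effect of losing the other is the question that the crossed design addresses.

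The arrays were similar in overall level, with median log2 intensities of 11.21 to 11.28 and correlations across genes of 0.993 to 0.999 between arrays of a group. A background level of 5.62 was set by probe sets for another yeast, and 105 to 148 genes per array lay below it. Dnup60 Dada2 array 3 and wildtype array 1 stood apart in their poly-A spike controls, whose mean log2 levels were 8.48 and 8.33, while the remaining arrays had 6.43 to 7.49. They were also alike across genes, where their deviations from their group means were correlated at r = 0.73. Both groups enter the departure with the same sign, so a shift shared by these arrays adds up in it. Counts of called list members that moved by over 1.5 times without these arrays are given both ways. NUP60 was at 6.02, 6.27 and 6.32 in Dnup60 Dada2 and at 6.43, 6.51 and 6.17 in Dnup60, against 12.27, 12.23 and 12.19 in Dada2 and 12.50, 12.57 and 12.51 in wildtype. ADA2 was below background in Dnup60 Dada2 (4.46, 4.51 and 4.21) and in Dada2 (4.40, 4.03 and 4.26), against 10.69, 10.73 and 10.74 in Dnup60 and 10.96, 10.95 and 10.92 in wildtype. Each deleted gene was low in the arrays of both groups labelled as lacking it.

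Transcripts of the mating-type system and of URA3 went against the common genotype in the Dnup60 Dada2 arrays. URA3, for orotidine phosphate decarboxylase of uracil synthesis, was at 13.16, 12.50 and 12.65 in Dnup60 Dada2 and below background in the other 3 groups. HMRA1, the a1 regulator of a cells, was below background in Dnup60 Dada2 (4.46, 4.26 and 4.42) and at 11.10 to 11.55 on the other 9 arrays. HMRA2, also of the mating-type loci, went the other way, with a departure of 1.60 ± 0.093. Its means were 12.54 in Dnup60 Dada2, 11.27 in Dnup60, 10.81 in Dada2 and 11.15 in wildtype. The HMRA2 probe set is of a type that shares sequence with other genes. All 4 alpha-specific genes were above expectation, by 3.45 for the agglutinin gene SAG1, 4.60 for the a-factor receptor gene STE3, 6.53 for MF(ALPHA)2 and 9.16 for the pheromone gene MF(ALPHA)1. All 7 a-specific genes were below expectation, by a median of -1.43, from MFA2 at -3.51 to MFA1 at -0.48. The log2 summed level of the 4 alpha-specific genes was 15.82 to 16.09 in Dnup60 Dada2, against 10.94 to 11.05 in Dnup60, 10.69 to 10.80 in Dada2 and 10.58 to 10.82 in wildtype. For the 7 a-specific genes the log2 summed level was 13.29 in Dnup60 Dada2, 16.20 to 16.37 in Dnup60, 15.04 to 15.18 in Dada2 and 16.02 to 16.12 in wildtype. STE2, the alpha-factor receptor gene of a cells, remained well above background in Dnup60 Dada2 at 11.69, 11.75 and 11.64. Mating type, URA3 and the combined deletion change in the same 3 arrays, so for every gene group that follows they cannot be told apart.

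**Figure D1:**
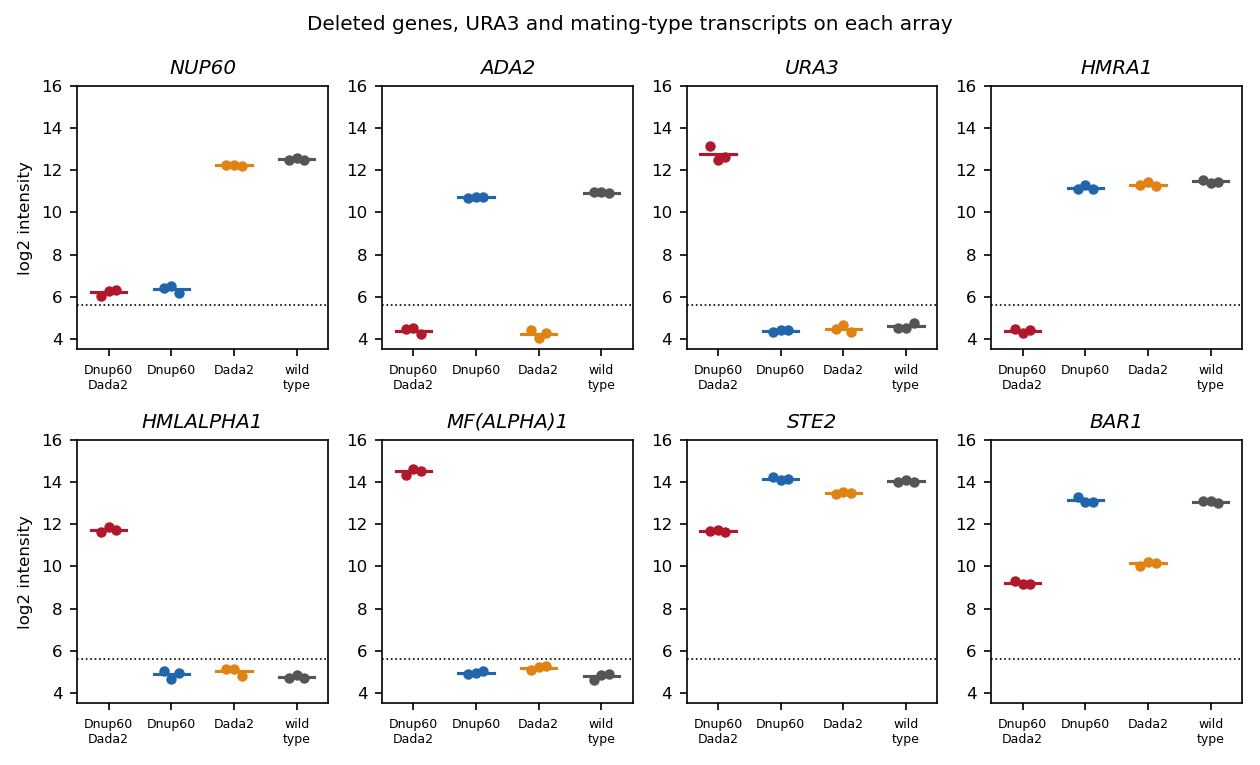
Log2 intensity of the deleted genes NUP60 and ADA2, of URA3 and of 5 mating-type transcripts on each of the 12 arrays. Points are arrays, bars are group means of 3 arrays, and the dotted line is the background level of 5.62. URA3, HMLALPHA1 and MF(ALPHA)1 are above background in Dnup60 Dada2 alone among the 4 groups, and HMRA1 is below it there alone.

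Of the 5449 genes, 1124 were above expectation (20.6%) and 1010 below it (18.5%), a total of 2134 (39.2%). The median departure of all genes was 0.02. The typical called departure was small, with a median size of 0.39 and a smallest of 0.11, and 85 genes (1.56%) were at least 2-fold above expectation and 64 (1.17%) at least 2-fold below. Outside a set of 51 mating, pheromone, URA3 and deleted genes, 1092 were above and 1001 below. With each array centred on its median the split was 912 above and 1226 below, and the share of called genes lying above expectation was 42.7% in place of 52.7%. The balance of directions over all genes therefore depends on the scaling, while the genes called under both scalings numbered 1922 and none of them changed sign. The Dnup60 Dada2 arrays all lay above the other 9 arrays for 1259 genes (23.1%) and all below them for 1231 genes (22.6%).

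Each deletion went with more and larger changes in cells that lacked the other gene. Without ADA2, loss of NUP60 went with higher levels of 1920 genes (35.2%) and lower levels of 1845 genes (33.9%), together 69.1% of those tested. With ADA2 present, 1369 genes (25.1%) were higher and 1429 (26.2%) lower, together 51.3%. At 2-fold or more, 286 genes (5.25%) were higher and 79 (1.45%) lower without ADA2, against 142 (2.61%) higher and 3 (0.0551%) lower with ADA2. The standard deviation of the NUP60 effect over genes was 0.63 without ADA2 and 0.40 with ADA2. Without NUP60, loss of ADA2 went with higher levels of 1806 genes (33.1%) and lower levels of 1666 (30.6%), together 63.7%. With NUP60 present 1237 (22.7%) were higher and 1254 (23%) lower, together 45.7%. At 2-fold or more, 145 genes (2.66%) were higher and 74 (1.36%) lower without NUP60, against 68 (1.25%) and 58 (1.06%) with NUP60. The standard deviation of the ADA2 effect was 0.52 without NUP60 and 0.38 with it.

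The NUP60 effects in the 2 backgrounds, which share no arrays, followed each other across genes with r = 0.65 and a slope of 1.01, as a description over genes that are not independent. Without the 51 marker genes r was 0.71. The ADA2 effects were less alike, with r = 0.48 over all genes and 0.53 without the markers, and a slope of 0.67. Among the 2134 called genes, 874 (41%) had a NUP60 effect that passed without ADA2 and not with it, which by itself does not show a difference, and 801 (37.5%) had effects of one direction that were larger without ADA2. In 106 genes (5%) the effects had one direction and were smaller without ADA2, and in 188 (8.8%) only the effect with ADA2 passed. In 126 genes (5.9%) both passed in opposite directions. These genes were called on the difference of the same effects, so the shares follow in part from that choice. Over all 5449 genes, 1517 had an effect that passed only without ADA2 and 550 only with it. Effects of the same direction were larger without ADA2 in 1570 of all genes and smaller in 552. The ADA2 effects passed in opposite directions for 238 of the called genes (11.2%).

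**Figure D2:**
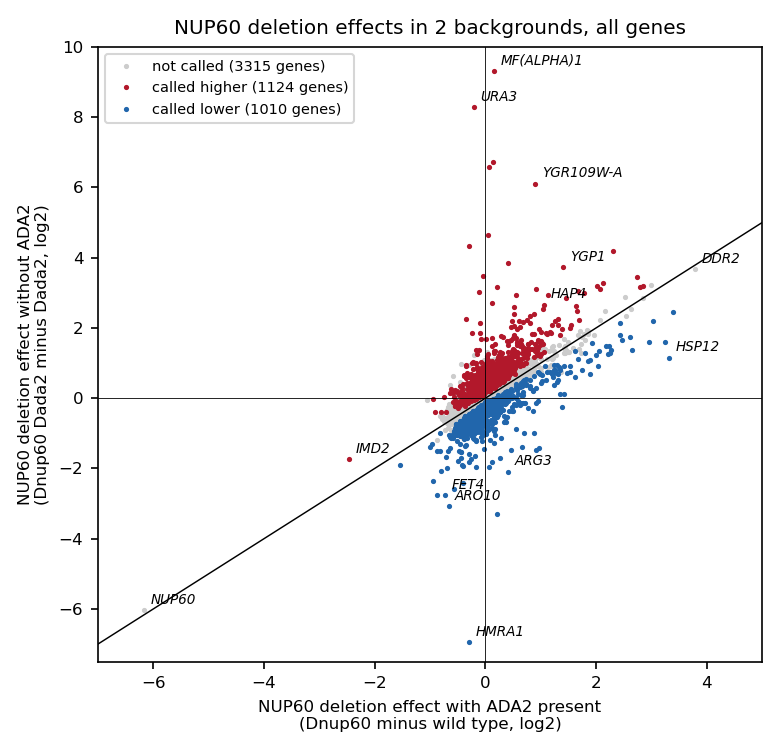
NUP60 deletion effect in cells without ADA2 (Dnup60 Dada2 minus Dada2, vertical, log2) against the effect in cells with ADA2 (Dnup60 minus wildtype, horizontal, log2) for 5449 genes. Each point is a gene, the diagonal line marks a departure of 0, and the 1124 genes called above expectation and 1010 called below it lie on either side of the line.

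Genes of mitochondrial respiration were above expectation together. Of 39 genes of the respiratory chain and ATP synthase, 35 were above expectation and 0 below, against 20.6% and 18.5% of all genes, with a median departure of 0.45 and a range of 0.05 to 1.29. The other 4 were RIP1, SDH4, ATP18 and NDE2, whose departures were also positive. The median NUP60 effect over the list was 0.90 without ADA2 and 0.36 with ADA2, and the median ADA2 effect was 0.65 without NUP60 and 0.19 with NUP60. In 38 of the 39 genes the 3 Dnup60 Dada2 arrays lay above all other arrays. On the linear scale all 39 were above expectation, and with the 2 arrays of high spike signal left out 38 were.

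NDE1 encodes a dehydrogenase on the outer side of the inner mitochondrial membrane that takes electrons from cytosolic NADH. Its levels were 14.30, 14.28 and 14.25 in Dnup60 Dada2, 13.43, 13.39 and 13.32 in Dnup60, 12.45, 12.42 and 12.56 in Dada2 and 12.97, 12.85 and 12.77 in wildtype. The additive expectation was 12.99, and the departure was 1.29 ± 0.078 (SE, limma adjusted p = 1.04e-06). Loss of ADA2 thus went with a lower level in cells with NUP60 (-0.39) and a higher level in cells without it (0.90). CYC1, the major isoform of cytochrome c, had the same pattern, with ADA2 effects of 0.50 without NUP60 and -0.55 with it, and a departure of 1.04 ± 0.098. QCR6, of the cytochrome bc1 complex, departed by 0.98 ± 0.10. SDH2, the iron-sulfur subunit of succinate dehydrogenase, departed by 0.88 ± 0.10, with a NUP60 effect of 1.88 without ADA2 and 1.0 with it. Subunits of ATP synthase departed less, for example ATP2 by 0.45 and ATP1 by 0.26.

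HAP4 encodes the activating subunit of the Hap complex, which drives transcription of respiratory genes and is limiting for it. Its levels were 13.29, 13.39 and 13.52 in Dnup60 Dada2, 11.85, 11.78 and 11.67 in Dnup60, 10.54, 10.83 and 10.82 in Dada2 and 10.88, 10.68 and 10.55 in wildtype. Dada2 and wildtype overlapped, Dnup60 lay above both, and Dnup60 Dada2 lay above all. The expectation was 11.79 and the departure 1.60 ± 0.14 (limma adjusted p = 1.93e-05).

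In the TCA cycle, 11 of 17 genes were above expectation and 0 below, with a median of 0.38, and 3 of those 11 are succinate dehydrogenase genes also counted in the respiratory chain. The share of TCA genes called was 64.7%, against 39.2% of all genes, of which 20.6% were above and 18.5% below. ACO1, for aconitase, was at 14.70, 14.74 and 14.87 in Dnup60 Dada2, 13.65, 13.59 and 13.52 in Dnup60, 13.28, 13.44 and 13.56 in Dada2 and 13.74, 13.27 and 13.29 in wildtype. The other 3 groups overlapped one another and the Dnup60 Dada2 arrays lay about 1 log2 unit above them, with a departure of 1.19 ± 0.17 (limma adjusted p = 0.000342). CIT1, the mitochondrial citrate synthase, departed by 0.83 ± 0.074. Mitochondrial ribosomal proteins moved less as a group. Of 64, 17 were above and 3 below, with a median of 0.08, and the counts above were 11 after centring and 26 without the 2 arrays of high spike signal. The 31.2% of them called was under the 39.2% of all genes. RSM7, of the small mitochondrial subunit, departed most, by 0.84 ± 0.096.

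**Figure D3:**
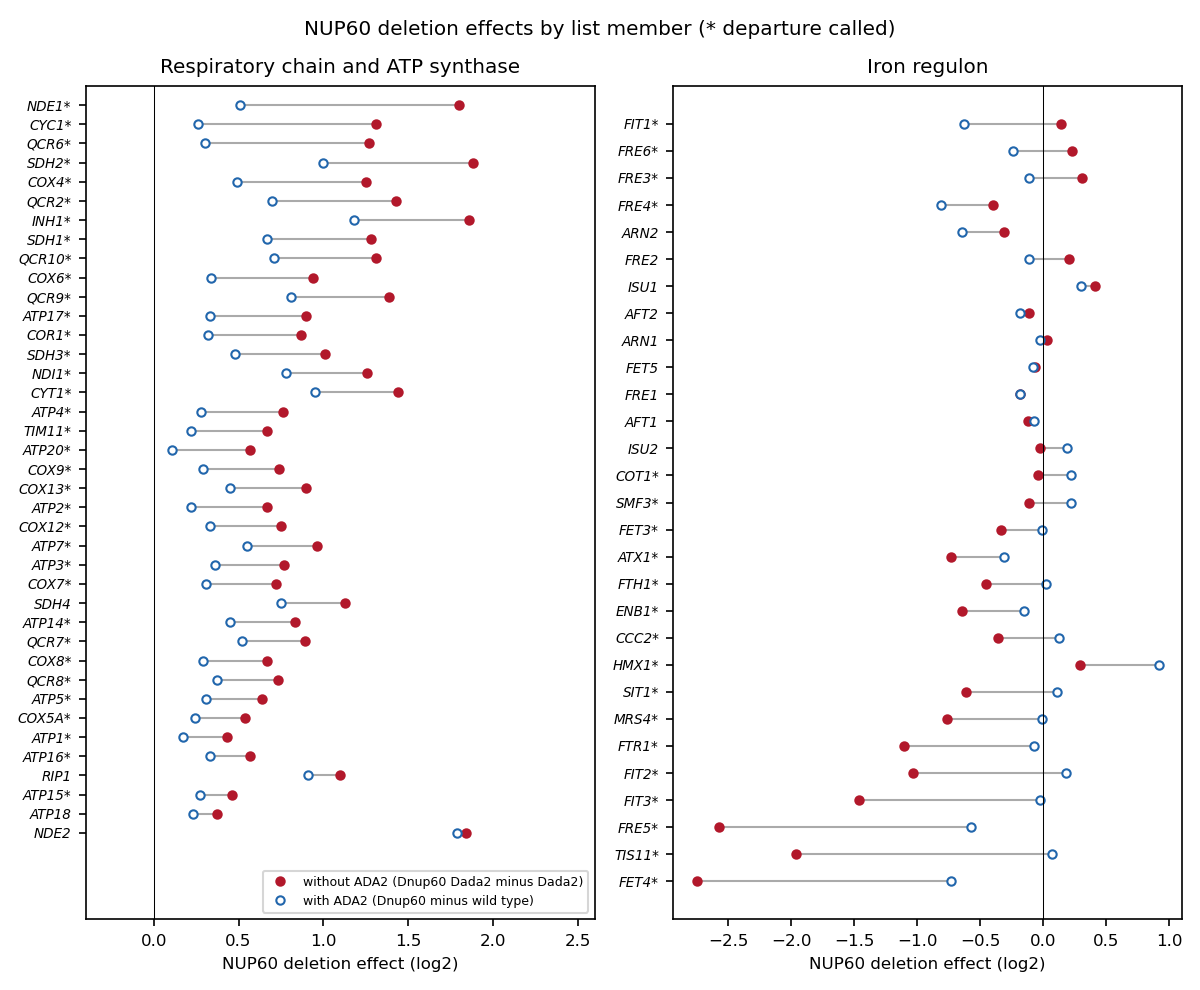
NUP60 deletion effects (log2, horizontal) for each of the 39 genes of the respiratory chain and ATP synthase and the 29 genes of the iron regulon. Filled points give the effect without ADA2 (Dnup60 Dada2 minus Dada2), open points the effect with ADA2 (Dnup60 minus wildtype), and an asterisk marks a called departure. Filled points lie to the right of open points for all 39 respiratory genes, and the widest gaps of the iron genes, for FET4, TIS11 and FRE5, run to the left.

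Genes for carbon sources other than glucose were mixed. In the gluconeogenesis and glyoxylate list 10 of 25 were above expectation and 5 below, with a median of 0.15, and after centring 7 were above and 6 below, and on the linear scale 15 and 3. The share called was 60%, against 39.2% of all genes, of which 20.6% were above and 18.5% below. JEN1, the lactate and pyruvate transporter gene, was at 9.39, 9.05 and 9.22 in Dnup60 Dada2 and between 7.27 and 7.6 on the other 9 arrays. Neither single deletion group stood apart from wildtype there, and the departure was 1.68 ± 0.13 (limma adjusted p = 7.34e-06). IDP2, cytosolic isocitrate dehydrogenase, departed by 0.78, while the cytosolic malate dehydrogenase gene MDH2 and the ammonia or acetate transporter family gene ATO3 departed by -1.01 and -0.98. ATO3 missed the threshold on the linear scale. Of 16 genes of peroxisomal beta-oxidation 6 were above and 1 below, median 0.16, and a second quantile normalization gave 6 and 4, and leaving out the 2 arrays of high spike signal 8 and 2. The 43.8% of beta-oxidation genes called was near the 39.2% of all genes. POT1, the thiolase of that pathway, was at 9.02, 8.88 and 8.78 in Dnup60 Dada2, 6.59, 6.53 and 6.13 in Dnup60, 5.92, 5.95 and 6.0 in Dada2 and 5.16, 5.49 and 5.18, below background, in wildtype. Each single deletion group lay above wildtype and the Dnup60 Dada2 arrays lay far above both, with an expectation of 7.09 and a departure of 1.80 ± 0.17 (limma adjusted p = 2.92e-05). The wildtype level of POT1 is only a bound, so the expectation could be higher and the departure smaller. PDH1, for 2-methylcitrate dehydratase of propionate breakdown, was at 11.76, 11.78 and 11.81 in Dnup60 Dada2, against 9.22 to 9.28 in Dnup60, 9.10 to 9.30 in Dada2 and 8.67 to 8.74 in wildtype. Its departure was 2.06 ± 0.07 (limma adjusted p = 9.09e-09).

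Glucose transport genes departed in both directions, and the called glycolytic genes lay below expectation. Shares called were 57.9% for hexose transport and sensing, 45% for glycolysis and 87.5% for galactose genes. Among all genes 39.2% were called, 20.6% above and 18.5% below. HXT1 encodes a low-affinity glucose transporter made at high glucose. It was at 10.69, 10.70 and 10.38 in Dnup60 Dada2, 12.46, 12.55 and 12.56 in Dnup60, 13.33, 13.36 and 13.31 in Dada2 and 13.17, 13.49 and 13.55 in wildtype. Dada2 and wildtype overlapped and Dnup60 Dada2 lay below all other arrays, with a departure of -1.86 ± 0.15 (limma adjusted p = 7.32e-06). Over the 19 measured genes of hexose transport and sensing, 5 were above and 6 below (8 and 5 on the linear scale) with a median of 0.02, among them MIG1, the glucose repressor gene, at -0.60 and the glucose sensor gene SNF3 at 0.57. Of 20 glycolytic genes 0 were above and 9 below, median -0.12, and after centring 13 were below. The hexokinase gene HXK1, the glucokinase gene GLK1 and TDH1, for a minor glyceraldehyde-3-phosphate dehydrogenase, departed by -0.82, -0.83 and -0.85. HXK1 was nevertheless highest in Dnup60 Dada2, at 14.68 to 14.73, against 14.01 to 14.12 in Dnup60, 12.99 to 13.08 in Dada2 and 11.55 to 11.62 in wildtype. On the linear scale its departure had the opposite sign, 0.31 times its mean level over all arrays (limma adjusted p = 0.00026). Of 8 galactose genes 3 were above and 4 below, median -0.24, with PGM2, phosphoglucomutase, at -1.12 and the pathway's repressor gene GAL80 at 0.76.

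Stress genes lay below the sum of the single effects more often than above it. Of 62 genes regulated by Msn2 and Msn4, transcription factors of the general stress response, 27 were below expectation and 13 above, against 18.5% and 20.6% of all genes, with a median of -0.16. HXK1, GLK1, PGM2 and SPI1, among the 27 below, are also counted in the glycolysis, galactose or cell wall lists. The median NUP60 effect over the Msn2 and Msn4 list was similar in both backgrounds, 1.23 without ADA2 and 1.30 with it. HSP12, a small membrane-associated heat shock protein gene, was at 14.92, 14.86 and 14.84 in Dnup60 Dada2, 14.95, 14.87 and 14.81 in Dnup60, 13.76, 13.77 and 13.62 in Dada2 and 11.46, 11.67 and 11.54 in wildtype. Dnup60 Dada2 and Dnup60 overlapped, and the ADA2 effect was -0.01 without NUP60 and 2.16 with it. The departure was -2.17 ± 0.088 (limma adjusted p = 3.73e-08). Its additive expectation of 17.03 lies above the highest mean of any gene on these arrays, 15.62, as do those of HSP26 (15.75) and HOR7 (15.64), so for these genes the additive level is outside the range the arrays showed. Only 5 of all 5449 genes had such an expectation, and the part that this played in the list's result was not tested.

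SOL4, a 6-phosphogluconolactonase-like gene, was within the range of the arrays and departed by -1.65 ± 0.11 (limma adjusted p = 1.87e-06). Its NUP60 effect was 1.60 without ADA2 and 3.25 with ADA2. Other members went the opposite way. SSA3, an Hsp70 chaperone gene, was at 12.38, 12.39 and 12.33 in Dnup60 Dada2, 10.93, 10.93 and 10.89 in Dnup60, 10.10, 10.17 and 10.25 in Dada2 and 10.45, 10.29 and 10.18 in wildtype, with a departure of 1.59 ± 0.088. YGP1, a secreted glycoprotein gene induced by nutrient limitation, was at 13.42, 13.27 and 12.99 in Dnup60 Dada2, 14.81, 14.85 and 14.79 in Dnup60, 9.46, 9.28 and 9.76 in Dada2 and 13.36, 13.41 and 13.45 in wildtype. With ADA2 loss its level fell by 1.59 on the log2 scale without NUP60 and fell by 3.91 with NUP60, and the departure was 2.31 ± 0.17. On the linear scale the departure of YGP1 was reversed, at -0.73 times its mean level over all arrays (limma adjusted p = 2.01e-05). Over the list on the linear scale 19 were above and 26 below. Of 25 chaperone genes under Hsf1, the heat shock factor, 8 were above and 2 below, median 0.10, led by BTN2 at 0.99, and the 40% called was near the 39.2% of all genes. In the DNA damage list 2 of 24 were above and 3 below, median 0.07, and 20.8% were called. Without the 2 arrays of high spike signal the Hsf1 counts were 9 and 4 and the DNA damage counts 4 and 4.

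**Figure D4:**
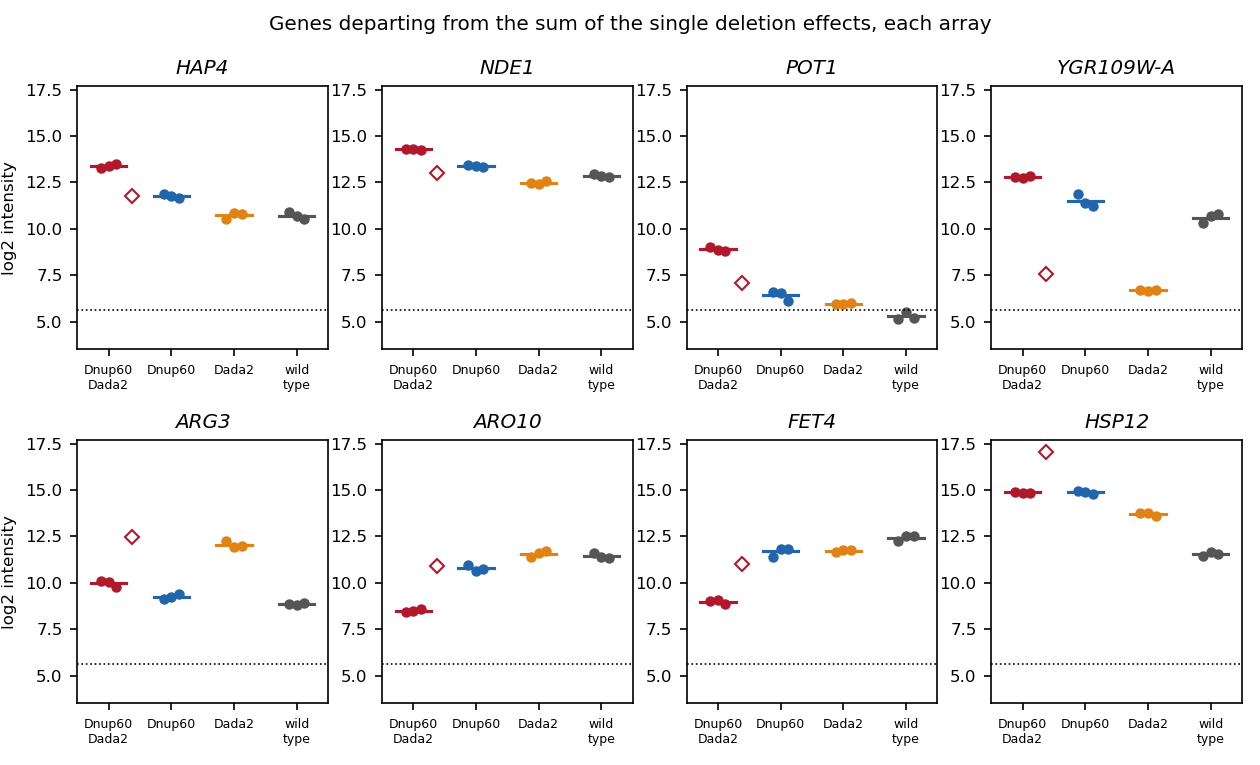
Log2 intensity of 8 genes with called departures on each of the 12 arrays. Points are arrays, bars are means of 3 arrays, the open diamond is the additive expectation for Dnup60 Dada2, and the dotted line is the background level of 5.62. The Dnup60 Dada2 arrays lie above the diamond in the upper row and below it in the lower row, where the expectation for HSP12 is 17.03.

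Iron uptake genes were below expectation more often than above. Of 29 genes of the iron regulon, which the activators Aft1 and Aft2 turn on when iron is short, 16 were below and 4 above, against 18.5% and 20.6% of all genes, with a median of -0.32. After centring, 17 were below and 2 above. FET4 encodes a low-affinity iron transporter. It was at 9.02, 9.09 and 8.86 in Dnup60 Dada2, 11.41, 11.84 and 11.84 in Dnup60, 11.68, 11.77 and 11.77 in Dada2 and 12.26, 12.51 and 12.50 in wildtype. The single deletions overlapped with each other, and the double lay below all other arrays by over 2 log2 units, with a departure of -2.03 ± 0.16 (limma adjusted p = 8.37e-06) that did not pass on the linear scale.

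TIS11, whose product promotes decay of mRNAs for iron-dependent proteins, was at 9.95, 9.77 and 9.76 in Dnup60 Dada2, 11.15, 11.64 and 11.65 in Dnup60, 11.91, 11.69 and 11.78 in Dada2 and 11.25, 11.39 and 11.58 in wildtype. The other 3 groups lay close together, and the departure was -2.03 ± 0.19 (limma adjusted p = 2.21e-05). FIT3, a cell wall mannoprotein gene of siderophore uptake, departed by -1.44 ± 0.29, with an ADA2 effect of -0.39 without NUP60 and 1.04 with it. FTR1, the permease of high-affinity iron uptake, departed by -1.03, and FET3, its oxidase partner, by -0.33. FRE5, a reductase homologue gene, departed by -2.00 ± 0.39 but was below background in Dnup60 Dada2 (4.78, 4.99 and 4.84), so its value there is only a bound. The activator genes themselves were near 0, with AFT1 at -0.04 and AFT2 at 0.07, neither called. FIT1, FRE3, FRE4 and FRE6 were the 4 members above expectation.

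Amino acid genes lay on both sides of expectation within each list. ARG3, ornithine carbamoyltransferase of arginine synthesis, was at 10.07, 10.06 and 9.78 in Dnup60 Dada2, 9.14, 9.26 and 9.37 in Dnup60, 12.25, 11.95 and 11.97 in Dada2 and 8.86, 8.78 and 8.89 in wildtype. The rise with ADA2 loss was 3.21 with NUP60 and 0.71 without it, and the departure was -2.50 ± 0.14 (limma adjusted p = 5.5e-07), the largest negative value outside the mating genes among genes above background. ARG1, argininosuccinate synthetase, had the same form, with ADA2 effects of 0.99 without NUP60 and 2.46 with it and a departure of -1.47 ± 0.099. ARG8 and CPA1, also of arginine synthesis, were the other 2 called below, at -0.54 and -0.44, with ADA2 effects of 0.09 and -0.07 without NUP60 and 0.63 and 0.37 with it. Of the list's 18 genes 5 were above and 4 below, median -0.02, against 20.6% and 18.5% of all genes. ARG4, argininosuccinate lyase, was at 0.00, and the proline catabolism genes PUT1, PUT2 and PUT4 were above by 1.0, 0.35 and 0.67.

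For lysine, branched-chain, histidine and tryptophan biosynthesis, 8 of 42 were above and 16 below, median -0.10, and after centring 5 and 18. The share called was 57.1%, against 39.2% of all genes, of which 20.6% were above and 18.5% below. LYS20, homocitrate synthase of lysine synthesis, departed by -1.02 ± 0.10, and TRP4 by -0.59. LEU1, isopropylmalate isomerase, departed by 1.54 ± 0.15. Its 3 Dnup60 Dada2 arrays (13.98, 14.03 and 14.18) lay above the other 9, the highest of which was wildtype array 1 at 13.92. ADA2 loss went with a higher LEU1 level without NUP60 (0.58) and a lower one with NUP60 (-0.96). In sulfur assimilation 12 of 31 were above and 7 below, 61.3% called, with a median of 0.24 that was -0.03 after a second quantile normalization. MET28, a transcription factor gene of the pathway, was above by 0.77, and MET22, for a phosphatase needed for sulfate assimilation, below by -0.80.

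ARO10 and ARO9 encode the decarboxylase and aminotransferase that break down aromatic amino acids to fusel alcohols. ARO10 was at 8.44, 8.47 and 8.57 in Dnup60 Dada2, 10.96, 10.64 and 10.73 in Dnup60, 11.38, 11.61 and 11.72 in Dada2 and 11.60, 11.38 and 11.34 in wildtype. Dada2 and wildtype overlapped, and the NUP60 effect was -3.08 without ADA2 and -0.66 with it, giving a departure of -2.42 ± 0.15 (limma adjusted p = 1.16e-06). ARO9 departed by -1.17 ± 0.074. Over the list of aromatic catabolism, NAD and thiamine genes 8 of 30 were above and 13 below, median -0.09. The share called was 70%, against 39.2% of all genes, of which 20.6% were above and 18.5% below. The nicotinic acid permease gene TNA1 was below by -1.10, and the thiamine transporter gene THI7 above by 1.48 ± 0.071.

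Genes of nucleotide synthesis, ribosome assembly and histones were below expectation more often than above it, against shares of 18.5% and 20.6% among all genes. Of 28 genes of purine synthesis and salvage 14 were below and 3 above, median -0.22, led by ADE17 at -1.05 ± 0.072, for the enzyme of the last steps to inosine monophosphate. IMD2, inosine monophosphate dehydrogenase, departed by 0.73 ± 0.12. It was at 8.17 to 8.32 in Dnup60 Dada2, 9.53 to 9.80 in Dnup60, 9.82 to 10.13 in Dada2 and 12.07 to 12.19 in wildtype, so that both single losses and their combination were lower than wildtype. IMD2 shares its probe set with related genes. Of 15 genes of the pyrimidine pathway 4 were above and 7 below, URA3 included, with a median of -0.14. URA1, dihydroorotate dehydrogenase, was at 13.45, 13.64 and 13.48 in Dnup60 Dada2, 14.39, 14.39 and 14.41 in Dnup60, 14.63, 14.61 and 14.59 in Dada2 and 14.45, 14.49 and 14.46 in wildtype, a departure of -1.02 ± 0.067 (limma adjusted p = 1.82e-06). URA4 and FUR1 were below by -0.48 and -0.63, with the Dnup60 Dada2 arrays, in which URA3 was high, under all others. URA2, below by -0.40, was at 13.83 in Dnup60 Dada2, 13.72 in Dnup60, 14.47 in Dada2 and 13.96 in wildtype. Its Dnup60 Dada2 arrays lay within the range of the others. URA10, PPR1 and FUR4 were above by 0.55, 0.48 and 0.41.

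Of 74 ribosome biogenesis genes 25 were below and 3 above, median -0.10, with departures between -0.46 and 0.36. The count below was 38 without the 2 arrays of high spike signal and 11 on the linear scale. The RNA helicase genes DBP2 and HAS1 were below by -0.46 and -0.43. Among 126 cytosolic ribosomal protein genes 18 were below and 1 above (18 and 4 without the 2 arrays of high spike signal), median -0.03, fewer than the background share in both directions. RPS9A was lowest at -0.55 ± 0.10. Of 10 histone genes 6 were below and 0 above, median -0.19, with HTB2, a histone H2B gene, at -0.50 ± 0.055. In the ergosterol pathway 9 of 28 were below and 3 above (median -0.08), in the proteasome list 2 of 35 were below and 4 above (-0.02), and in the phosphate regulon 5 of 21 were below and 5 above (-0.10). The shares called were 42.9%, 17.1% and 47.6%, against 39.2% of all genes, of which 18.5% were below and 20.6% above. Centring gave 4 below and 2 above for the proteasome and 7 below and 3 above for the phosphate regulon, and without the 2 arrays of high spike signal the phosphate counts were 8 and 7. PHO84, the high-affinity phosphate transporter gene, departed by -1.03 ± 0.16. PHO3, for a thiamine-repressible acid phosphatase, departed by 1.21 ± 0.15 on the log2 scale and by -0.10 times its mean level over all arrays on the linear scale (limma adjusted p = 0.312).

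**Figure D5:**
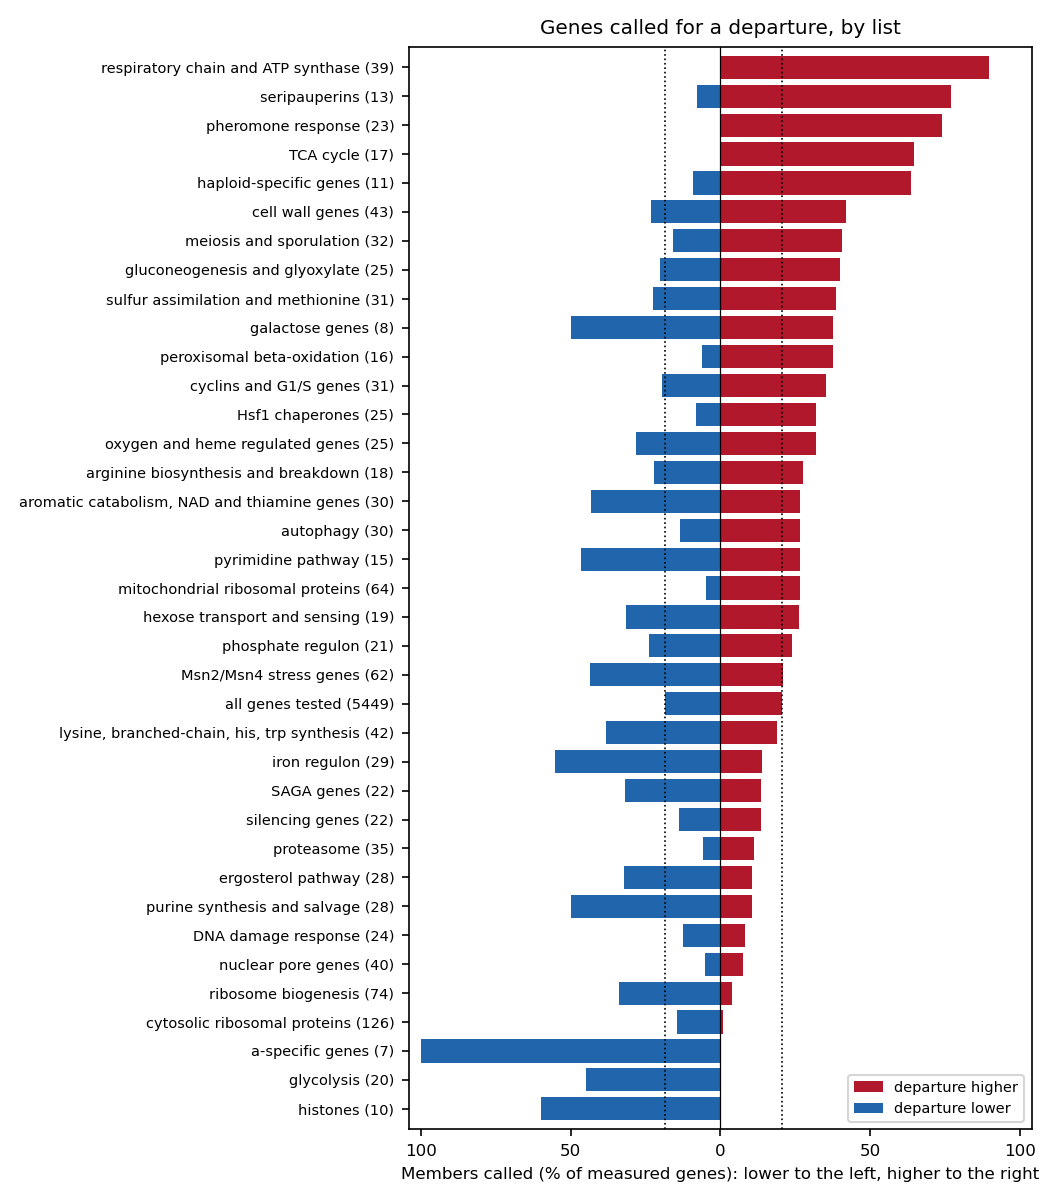
Share of measured genes called above (right) and below (left) the additive expectation in each list with at least 5 measured genes, numbers measured in brackets. Dotted lines mark the shares over all 5449 genes, 20.6% and 18.5%. The respiratory chain has 35 of 39 genes to the right and 0 to the left, and the iron regulon has 16 of 29 to the left.

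Pheromone response genes lay above expectation, in arrays that also carried alpha-cell transcripts. Of 23 genes 17 were above and 0 below, with a median of 0.80, and of 11 haploid-specific genes 7 were above and 1 below, median 0.45. The shares called were 73.9% and 72.7%, against 39.2% of all genes, of which 20.6% were above and 18.5% below. FUS1, a cell fusion gene induced by pheromone, was at 11.49, 11.59 and 11.72 in Dnup60 Dada2, 11.05, 10.66 and 10.84 in Dnup60, 8.14, 8.24 and 8.02 in Dada2 and 10.86, 10.92 and 10.91 in wildtype. With loss of ADA2, FUS1 was higher by 0.75 on the log2 scale in cells without NUP60 and fell by 2.76 in cells with NUP60. The departure was 3.52 ± 0.13 (limma adjusted p = 2.23e-08). AGA1, the anchor of the a-agglutinin, and PRM1, a membrane fusion gene, had the same signs, with departures of 3.13 ± 0.15 and 2.97 ± 0.16. FAR1, which arrests the cell cycle on pheromone, was at 11.31, 11.42 and 11.71 in Dnup60 Dada2, 11.78, 11.59 and 11.57 in Dnup60, 9.07, 9.26 and 9.32 in Dada2 and 12.17, 11.99 and 11.81 in wildtype. Its low level in Dada2 was thus not seen in Dnup60 Dada2, and the departure was 2.61 ± 0.17. The pathway's regulator genes were also above, with SST2 at 2.26, GPA1 at 1.05 and STE12 at 0.90, while STE4 and STE18, for the other G protein subunits, were at -0.01 and 0.05 and were not called. FUS3, at 0.44 (limma adjusted p = 0.0304), lost its call when any 1 of 9 arrays was left out.

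Outside the mating lists, AFB1 and the Ty3 gene YGR109W-A also combined a fall with ADA2 loss in cells with NUP60 and a rise in cells without it. AFB1, for a secreted barrier to a-factor that is made by alpha cells, was at 12.82, 12.90 and 12.61 in Dnup60 Dada2, 10.74, 10.50 and 10.55 in Dnup60, 8.45, 8.46 and 8.45 in Dada2 and 10.69, 11.01 and 10.98 in wildtype. Its departure was 4.62 ± 0.14 (limma adjusted p = 3.02e-09). Ty3 is a retrotransposon whose transcription is induced by mating pheromone. Its gene YGR109W-A was at 12.77, 12.74 and 12.85 in Dnup60 Dada2, 11.87, 11.38 and 11.25 in Dnup60, 6.69, 6.63 and 6.72 in Dada2 and 10.32, 10.67 and 10.80 in wildtype. The Dada2 arrays were lowest and the Dnup60 Dada2 arrays highest, with an expectation of 7.58 and a departure of 5.2 ± 0.21 (limma adjusted p = 4.04e-08). The Ty3 genes YIL082W-A and YGR109W-B departed by 1.88 and 1.72. YGR109W-A and YGR109W-B overlap on chromosome VII, while YIL082W-A lies on chromosome IX. The probe sets of YGR109W-A and YIL082W-A are of a type that shares sequence, so Ty3 copies cannot be separated with certainty. ADA2 effects with NUP60 were -0.57 for YIL082W-A and -0.45 for YGR109W-B, against -3.92 for YGR109W-A. The departure of 5.2 thus rests on the YGR109W-A probe set alone, and the other Ty3 probe sets did not show its deep fall in Dada2.

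Cell wall and related genes departed in both directions. Among all genes 20.6% were above expectation and 18.5% below, together 39.2%. Of 13 measured seripauperin genes, a subtelomeric family of cell wall proteins known for induction without oxygen, 10 were above and 1 below, with a median of 0.41, but members share probe sequence and are not independent. PAU21 was at 7.70, 7.90 and 7.71 in Dnup60 Dada2 and below background in the other 3 groups, and PAU3 departed by 1.49 ± 0.093. In the list of 25 oxygen and heme regulated genes, HAP4 and PAU3 included, 8 were above and 7 below, median 0.02. TIR1, a cell wall mannoprotein gene of cold and anaerobic growth, was at 10.27, 10.32 and 9.92 in Dnup60 Dada2, 12.09, 12.06 and 12.18 in Dnup60, 12.46, 12.61 and 12.69 in Dada2 and 12.35, 12.60 and 12.60 in wildtype, a departure of -2.01 ± 0.15 (limma adjusted p = 5.6e-06). Of 43 cell wall genes 18 were above and 10 below, median 0.05, with SPI1 at -1.19 and the sporulation-associated glucanosyltransferase gene GAS2 at 0.88. The largest positive departures of that list were those of AGA1 at 3.13 and YGP1 at 2.31, each also in another list. Among 32 meiosis and sporulation genes 13 were above and 5 below (median 0.16), or 11 and 8 after a second quantile normalization, led by IME2, a meiotic kinase gene, at 1.47 ± 0.18. The 31 cyclin and G1/S genes had 11 above and 6 below (median 0.10), with the paired mitotic cyclin genes CLB1 and CLB2 at -0.85 and 0.71. The largest departure of that list, 2.61, was that of the pheromone arrest gene FAR1. Shares called were 84.6% for seripauperins, 60% for oxygen and heme regulated genes and 65.1% for cell wall genes. They were 56.2% for meiosis and sporulation and 54.8% for cyclins and G1/S. Of 30 autophagy genes 8 were above and 4 below (median 0.08), or 6 and 6 after centring, and the 40% called was near the 39.2% of all genes. Among them 2 of the 4 largest, ATG1 and ATG23, lost their call when any 1 of 7 arrays was left out.

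Genes encoding the partners of the deleted proteins had small departures. Of 40 nuclear pore genes 3 were above and 2 below, median 0.06, fewer than among all genes, with NUP159 at 0.47 and POM33 at -0.55 the farthest. Centring gave 2 above and 7 below, and leaving out the 2 arrays of high spike signal 5 and 10. Of 22 SAGA genes 3 were above and 7 below, median -0.06, with 0 and 8 after centring and 5 and 9 without the 2 arrays of high spike signal. The 45.5% of SAGA genes called was above the 39.2% of all genes, of which 20.6% were above and 18.5% below. GCN5, the catalytic subunit, was below by -0.40 ± 0.10 and TAF6 by -0.43 ± 0.098. ADA2 itself, counted among the 3 SAGA genes above, was at 0.39 (limma adjusted p = 0.0366) with both groups that lack it below background. Its call was lost when any 1 of 10 arrays was left out. NUP60 was at 0.13 (limma adjusted p = 0.435). Of 22 silencing genes 3 were above and 3 below, median 0.04, with DOT1, a histone H3 methyltransferase gene, at -0.62. The 27.3% called lay under the 39.2% of all genes, and the silencing counts were 1 and 4 after centring and 4 and 6 without the 2 arrays of high spike signal. The chromosomal neighbours of NUP60 (TFC3 and ERP1), of ADA2 (RPS17B and UTP6) and of URA3 (GEA2 and TIM9) had departures between -0.10 and 0.18, and 0 of these 6 were called. By chromosome, median departures ran from 0.00 to 0.08, and the share of genes called from 35.6% on chromosomes VII and XVI to 47.9% on chromosome V.

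In 6 genes (0.11%) both NUP60 effects passed in opposite directions at 0.5 or more on the log2 scale, and all 6 rose with NUP60 loss when ADA2 was present and fell without it. FMP48, for a putative protein kinase, was at 8.62, 8.63 and 8.48 in Dnup60 Dada2, 9.0, 8.91 and 8.95 in Dnup60, between 9.99 and 10.12 in Dada2 and 8.04, 8.10 and 7.96 in wildtype. It was higher than wildtype in each single deletion, most in Dada2, and the Dnup60 Dada2 arrays lay between wildtype and Dnup60. Its NUP60 effect was -1.46 without ADA2 and 0.92 with ADA2, and the departure was -2.38 ± 0.08 (limma adjusted p = 8.62e-09). WSC4, a cell wall stress sensor gene, and YTP1 had NUP60 effects of the same signs, with departures of -1.70 ± 0.08 and -2.05 ± 0.13. ICS2, GTO3 and YBR013C were the other 3. In 21 genes (0.385%) both ADA2 effects passed in opposite directions at that size, and they include FUS1, AGA1, AFB1, LEU1, YGR109W-A and FRE5 described above.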

How the data were processed

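The deposited values are intensities per probe set on a linear scale, and per the submitters' processing notes the authors made them by RMA in Affymetrix Expression Console 1.1. The design had assumed log2 values, so log2 was taken and no other scaling was applied. Of 10928 probe sets, 5498 named 1 S. cerevisiae gene, and the set with the highest mean stood for each of 5449 genes. Left out were 1746 S. pombe probe sets, 3470 without a gene name, 213 controls and 1 with several genes. The background level is the 95th percentile of the S. pombe means. The number of arrays and signal over background limit precision.

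limma 3.58.1 in R 4.3.3 fitted a mean per group to all 12 arrays, moderated by eBayes (8 residual degrees of freedom and 2.58 from the prior) and Benjamini-Hochberg adjustment over 5449 genes for each contrast. Errors of departures are standard errors. Linear-scale departures were fitted on intensities divided by the gene's mean over all arrays. The fit was checked on simulated data.

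Genes named are the deleted genes, URA3, mating and pyrimidine genes, the 15 largest called departures each way above background, up to 4 members of lists with at least 3 calls, and up to 10 genes with opposite effects of 0.5 or more. Other list members and all members behind a count of 5 or fewer were named after their values were seen. The members, the 38 gene lists (1079 of 1126 genes measured) and the tests were chosen with earlier results of these data known. Replicate numbers did not pair the samples: of 18 same-numbered pairs of arrays, 4 had deviations correlated above 0.1. Genes were named through the platform annotation and RefSeq (assembly release 64). No sequences were used here. Alternatives covered scaling, filters, moderation, array weights, probe set choice, a replicate block, a spike covariate and leaving out arrays.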

Additional observations from a re-analysis of the deposited data

Results flagged for a closer look

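In 24 genes the effect of a deletion differed between the 2 backgrounds and passed in opposite directions, each at 0.5 or more on the log2 scale, with the departure itself as the test of the difference (limma, adjusted p under 0.05). For 6 of them the NUP60 effects opposed each other, at departures of -2.38 for FMP48, -2.38 for YBR013C, -2.05 for YTP1, -1.87 for ICS2, -1.70 for WSC4 and -1.42 for GTO3. YBR013C rests on uneven arrays, at 7.97, 8.02 and 8.01 in Dnup60 Dada2, 9.28, 9.39 and 8.0 in Dnup60, 9.94, 9.20 and 9.12 in Dada2 and 7.95, 7.77 and 8.04 in wildtype.

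The ADA2 effects opposed each other in 21 genes, GTO3, YBR013C and YTP1 among them. Above expectation were YGR109W-A at 5.2, AFB1 at 4.62, FUS1 at 3.52, AGA1 at 3.13, PRM1 at 2.97, YIL082W-A at 1.88, TEC1 at 1.57, LEU1 at 1.54, PRM5 at 1.52, AFR1 at 1.5 and KAR4 at 1.38. All 11 were lower with ADA2 loss in cells with NUP60 and higher in cells without NUP60. The Dnup60 Dada2 arrays, and not the Dnup60 arrays, were also those with raised alpha-cell transcripts and URA3. Below expectation were FRE5 at -2.00, YIL014C-A at -1.77, YAR066W at -1.53, PRY3 at -1.42, SPS100 at -1.30, PHM6 at -1.27 and YAR068W at -1.25, all 7 of them higher with ADA2 loss in cells with NUP60 and lower in cells without it.

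Control probe sets for reporter sequences, which the comparisons do not use, also carried signal. The first was at 15.23 in Dnup60 Dada2, 15.04 in Dnup60 and 15.06 in Dada2, against 4.68, below background, in wildtype. Another was at 8.69 ± 0.57 (SD, n = 3) in Dnup60 Dada2 and below background in the other groups, at 5.00 in Dnup60, 5.10 in Dada2 and 5.23 in wildtype. The last was at 13.98 in Dnup60 Dada2, 14.05 in Dnup60, 14.47 in Dada2 and 13.39 in wildtype. The files used here do not name their genes.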

How the results depend on the processing

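The counts of 1124 genes above and 1010 below expectation moved by more than 1.5 times under 1 alternative, the added requirement of a 2-fold departure, which left 85 above and 64 below. The counts were 912 and 1226 with arrays centred on their medians, 1010 and 1249 after a second quantile normalization, 1220 and 886 on the linear scale, 1637 and 1373 with array weights, and 1403 and 1231 without wildtype array 1 and Dnup60 Dada2 array 3. Leaving out single arrays gave 845 to 1185 above and 797 to 1050 below. With the poly-A spike covariate 1538 of the called genes (72.1%) remained called. The replicate block gave 942 and 871, with 1802 shared calls, and is reported although the replicate numbers pair no samples. Signs turned on the linear scale for HXK1 (0.31), PHO3 (-0.10) and YGP1 (-0.73), among 34 called genes that did so, and the cause was not tested. Departures of genes near the highest levels or below background are limited by signal range.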

Other observations

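Several of the largest departures belong to genes in none of the lists. DSF1, a mannitol dehydrogenase family gene, was at 9.62, 9.63 and 9.45 in Dnup60 Dada2, 7.29, 7.44 and 7.18 in Dnup60, 7.58, 7.74 and 7.79 in Dada2 and 7.15, 7.45 and 7.59 in wildtype, with a departure of 1.95 ± 0.16 (limma adjusted p = 7.81e-06). ERR3, an enolase-related gene near a telomere, departed by 2.39 ± 0.22. Both have probe sets shared with near-identical relatives. YIR042C, a gene of unknown function, was at 10.16, 10.12 and 9.82 in Dnup60 Dada2, 8.0, 8.39 and 8.35 in Dnup60, 5.46, 5.58 and 6.49 in Dada2 and 5.59, 6.32 and 5.93 in wildtype, a departure of 1.89 ± 0.37. CIS1 had overlapping levels in Dnup60 Dada2, Dnup60 and wildtype and was lower in Dada2 alone, at 7.45, 7.82 and 7.70, with a departure of 2.1 ± 0.16. YCR101C, at 1.78 ± 0.60 (limma adjusted p = 0.0364), was below background in Dnup60, Dada2 and wildtype on average, and its call was lost when any 1 of 7 arrays was left out.

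Among genes below expectation, PNS1, a membrane protein gene, was at 10.03, 9.79 and 9.92 in Dnup60 Dada2, 11.42, 11.39 and 11.41 in Dnup60, 11.41, 11.37 and 11.38 in Dada2 and 10.84, 11.03 and 10.97 in wildtype. It was higher than wildtype in each single deletion and lower than all other arrays in Dnup60 Dada2, with a departure of -1.94 ± 0.087 (limma adjusted p = 9.99e-08). YNL146C-A departed by -1.97 ± 0.16, with Dnup60 Dada2 at 6.81, 7.01 and 7.11 and the other 9 arrays between 8.57 and 9.30.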
